A study of Mus musculus with 31 samples.

Results

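Cadherins and protocadherins were followed across 31 BXD recombinant inbred mouse strains. The members were the spots whose single gene name in the platform table began with Cdh or Pcdh and a digit, or with Pcdha, Pcdhb or Pcdhg and a digit, without Cdh5. They were 49 of 23040 spots and, after averaging the spots of a gene, 44 of 15096 genes. The genes were 5 type I classical cadherins, 9 type II classical cadherins, 4 other cadherins (Cdh13, Cdh16, Cdh17 and Cdh23), 9 non-clustered protocadherins and 17 clustered protocadherins, of which 3 were Pcdha and 14 Pcdhb genes. No Pcdhg gene met the rule. The name Pcdhga12 has a letter after the g and was left out, with a mean log2 ratio of 0.07 and an adjusted p of 0.260 (limma).

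The BXD strains are inbred lines bred from a cross of C57BL/6J with DBA/2J, and each carries at any locus the allele of 1 of these parents. For every strain, a pool with equal RNA shares of 3 males, 8 weeks old, was put on 1 two-colour spotted glass array against a common reference from male C57BL/6J mice of the same age, to which spike-in RNA was added. The dyes were not swapped, so a dye effect specific to a spot is part of its mean ratio. The sample titles name kidney and the source and tissue fields name whole brain. A ratio to a reference of the same tissue holds no level, so cell type markers could not settle which it was. Values are log2 ratios, read here as strain over reference. That direction and the base of the logarithm are the likely reading, from the reference in the green channel and the red over green convention of limma, and the labels state neither. With a single array per strain, the effect of a strain and that of its array cannot be told apart, and the p-values rest on the spread over these 31 arrays without any spread of the reference.

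Cadherins are transmembrane proteins that bind cells to one another through calcium-dependent repeats outside the cell. Classical cadherins bind catenins inside the cell, which link them to actin. Type I members such as Cdh1 (E-cadherin) and Cdh2 (N-cadherin) form strong adherens junctions, and type II members mark smaller groups of cells, such as Cdh11 in mesenchymal cells and Cdh6 in the developing kidney. Cdh16 is the kidney-specific cadherin of tubule epithelium. Clustered protocadherins are made from tandem arrays of variable first exons, each with its own promoter, and give single neurons a surface identity.

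Promoter sequence in RefSeq (GRCm38.p6), from 250 bases before to 50 after the start, was given for 17 of the 44 genes. The sequences of Pcdh9 and Pcdh15 are shown because these protocadherins covaried over strains. That of Cdh22 is shown because this gene was the 1 type II cadherin called higher and covaried with Cdh2 and Cdh11. Capitals mark matches on either strand to an E-box (CACCTG), a GC box (GGGCGG) or a TATA box (TATAAA), whose letters do not overlap one another.
Pcdh9 promoter, chr14:93890630-93890929, minus strand: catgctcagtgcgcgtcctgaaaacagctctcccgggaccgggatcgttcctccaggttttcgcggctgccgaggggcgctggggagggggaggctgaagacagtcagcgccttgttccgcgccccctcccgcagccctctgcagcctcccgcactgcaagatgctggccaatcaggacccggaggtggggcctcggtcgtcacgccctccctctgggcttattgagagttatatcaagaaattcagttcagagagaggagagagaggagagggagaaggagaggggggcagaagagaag
Pcdh15 promoter, chr10:73821617-73821916, plus strand: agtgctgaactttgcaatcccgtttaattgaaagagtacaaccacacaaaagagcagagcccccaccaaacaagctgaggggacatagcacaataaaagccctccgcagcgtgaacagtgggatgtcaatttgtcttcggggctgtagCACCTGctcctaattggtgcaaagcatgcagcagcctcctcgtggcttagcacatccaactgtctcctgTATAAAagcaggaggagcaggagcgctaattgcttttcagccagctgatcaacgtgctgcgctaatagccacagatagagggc
Cdh22 promoter, chr2:165234688-165234987, minus strand: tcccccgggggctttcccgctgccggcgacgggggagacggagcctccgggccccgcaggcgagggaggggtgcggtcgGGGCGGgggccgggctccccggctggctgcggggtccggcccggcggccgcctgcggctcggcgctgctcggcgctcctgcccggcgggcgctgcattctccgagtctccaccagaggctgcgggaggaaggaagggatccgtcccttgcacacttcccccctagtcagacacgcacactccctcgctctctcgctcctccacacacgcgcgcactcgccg
The Pcdh9 stretch held no match and 18 CpG dinucleotides. The Pcdh15 stretch held 1 E-box, 1 TATA box and 8 CpG. The Cdh22 stretch held 1 GC box, 38 CpG and a GC content of 76.3%. Over the 17 promoters, the GC box was found in 8 (47.1%), against 35.9% of 27025 promoters of all genes, the E-box in 2 (11.8%, against 20.0%) and the TATA box in 2 (11.8%, against 14.2%). The median CpG count was 14 in the members and 7 over all genes. A match is a description of letters and not of a bound site.

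The sorted values were the same on all 31 arrays, with a median of 0.01. Any 2 arrays correlated at -0.09 to 0.81 over all spots (median 0.36). The first principal component over arrays held 20.6% of the variance, and BXD15 and BXD38 each stood apart as a cluster of 1 array. The 232 spots of Gapdh had a within-array SD of 0.370 to 0.987 with a median of 0.526. Of the 44 members, 21 had an SD over strains above the lowest of these and 6 had one above the median. Of all 15096 genes, 7010 and 2736 did, so these counts are not particular to the members. An SD over spots of 1 array and an SD over strains are also unlike measures. The place of a spot within the repeat of 480 spots in the deposited order explained 36.7% of the variance of mean ratios, and the members were not spread evenly over these places. Of their 49 spots, 21 lay at places 105 to 112 and 20 at places 148 to 151, the 2 runs of at least 4 successive places that each held a member, picked out after the places were seen. The mean taken off for a place includes the members' own spots there. Many results are therefore also given with the mean of the same place removed.

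Against C57BL/6J, 26 of the 44 genes differed from 0 on average over the strains (limma, Benjamini-Hochberg adjusted p under 0.05 over all genes), 3 higher and 23 lower. Over all genes, 55.8% were called, 26.5% higher and 29.3% lower. The share called was thus near the background, while few members lay on the higher side. The median of the members' mean log2 ratios was -0.15, against -0.01 for all genes. With spot place removed, 26 genes were again called, but 9 higher and 17 lower: 7 calls were lost, 7 were gained and no call turned to the opposite direction. In that setting 4468 of all 15096 genes were called higher and 3791 lower, so the balance over all genes moved to the higher side as well. Means beyond 0.5 belonged to Cdh16 and Pcdh1 on the higher side, and means below -0.5 to Pcdhb4, Pcdhb16 and Pcdhb22.

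**Figure D1:**
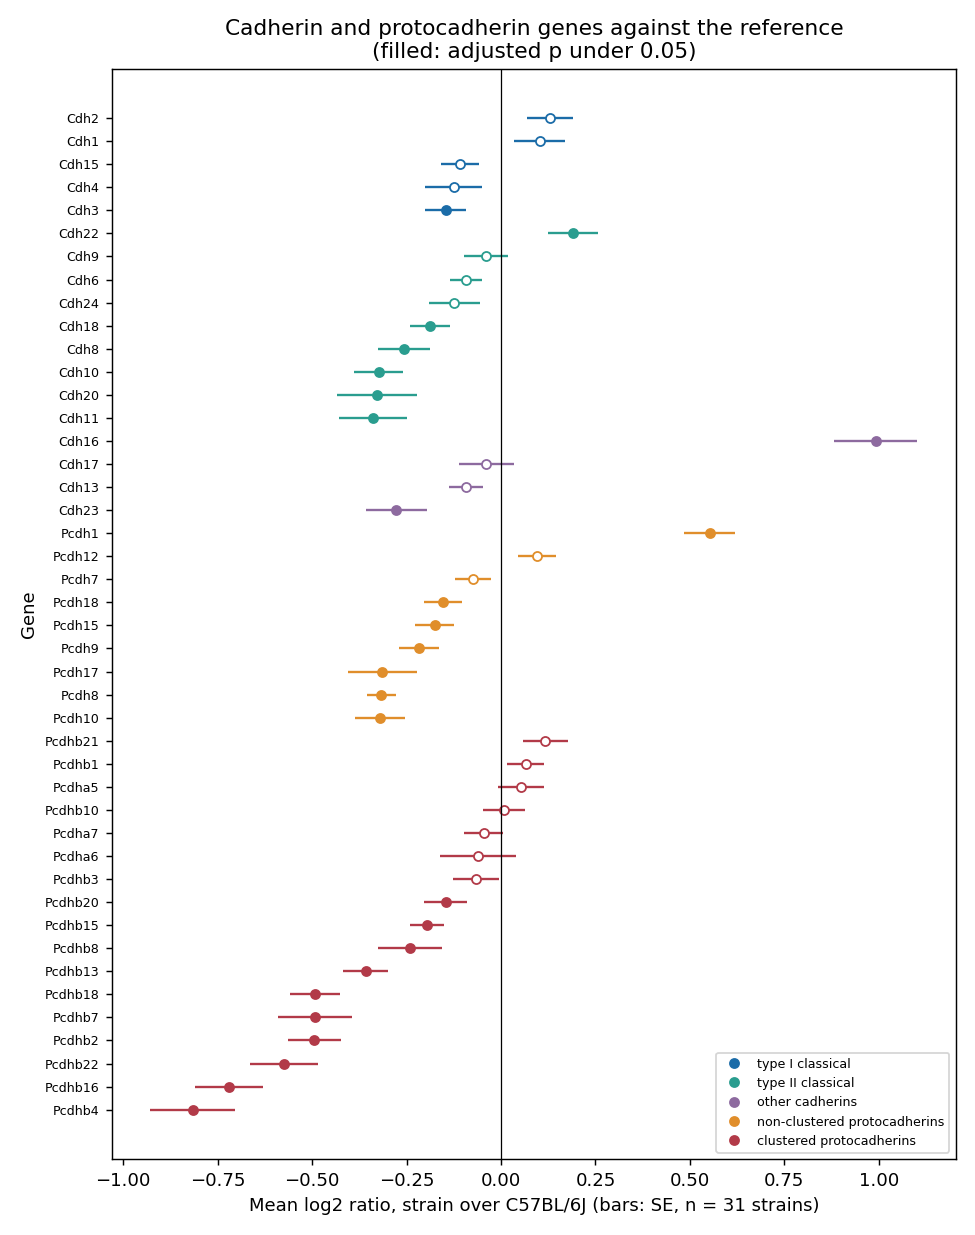
Mean log2 ratio of each of the 44 genes over 31 strains (horizontal axis, strain over C57BL/6J), with the standard error as bars, grouped by subfamily on the vertical axis. Filled points passed the adjusted p of 0.05. Cdh16 at 0.99 and Pcdh1 at 0.55 stand highest, and Pcdhb4 at -0.82 stands lowest.

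Cdh16 had the largest mean of the members. Its log2 ratio ran from -0.15 in BXD11 through a median of 0.96 to 2.73 in BXD12, and was above 0 in 29 of 31 strains. BXD6 and BXD1 also exceeded 2, and BXD15 was the other strain below 0. The mean of 0.99 ± 0.110 (SE, n = 31) was called higher (adjusted p = 4.74e-09, limma), and was 0.96 with spot place removed. Its spread, an SD of 0.644, was larger than that of 90.6% of genes. Cdh16 followed none of the marker lists for cell types described further on.

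The other 3 cadherins outside the classical types gave smaller means. Cdh23, a tip-link protein of hair cells, had a mean of -0.28 (adjusted p = 0.00449, limma) and ran from -1.54 in BXD31 to 0.48 in BXD14, with 24 strains below 0. It was at -0.10 and not called once spot place was removed. Cdh17 (liver-intestine cadherin, mean -0.04, adjusted p = 0.669, limma) and Cdh13 (T-cadherin, anchored by a lipid, mean -0.09, adjusted p = 0.0837, limma) were not called, and with spot place removed Cdh17 was called higher at 0.19 and Cdh13 lower at -0.12.

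Of the 5 type I classical cadherins, 1 was called. Cdh3 (P-cadherin) had a mean of -0.15 (adjusted p = 0.0202, limma), with 23 strains below 0 and the lowest, -1.12, in BXD18. Its mean was -0.23 with spot place removed. Cdh1 ran from -0.69 in BXD34 through 0.06 to 0.74 in BXD21, and its mean of 0.10 ± 0.0672 (SE, n = 31) was not called (adjusted p = 0.197, limma). Cdh2 ran from -1.09 in BXD38 through 0.16 to 0.81 in BXD40 and was above 0 in 25 strains. The mean of Cdh2, 0.13 ± 0.0604 (SE, n = 31), missed the threshold (adjusted p = 0.0668, limma). Leaving out 1 strain changed this: without BXD38 the mean was 0.17 and was called higher (adjusted p = 0.00334), and without BXD29 it was 0.15 (adjusted p = 0.0301). Cdh4 (R-cadherin, mean -0.13) and Cdh15 (M-cadherin of muscle, mean -0.11) were not called with all strains. Without BXD8 for Cdh4, and without BXD14, BXD15 or BXD21 for Cdh15, they were called lower.

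Of the 9 type II classical cadherins, 6 were called, 1 higher and 5 lower. Cdh22 was the higher one, with a mean of 0.19 ± 0.0663 (SE, n = 31, adjusted p = 0.0148, limma). It was above 0 in 25 strains, and BXD38 at -1.28 lay far below the next strain, BXD42 at -0.31. Its mean was 0.37 after removal of spot place. Cdh11 was lower, with a mean of -0.34 ± 0.0889 (SE, n = 31, adjusted p = 0.00162, limma), from -1.97 in BXD38 through -0.23 to 0.59 in BXD14. Cdh20 had a mean of -0.33 ± 0.105 (SE, n = 31, adjusted p = 0.00838, limma). BXD32 at -2.18 and BXD42 at -1.92 were lowest for Cdh20 and BXD8 at 1.01 was highest, which gave it an SD of 0.616. Cdh10 (mean -0.32), Cdh8 (-0.26) and Cdh18 (-0.19), type II cadherins known from the brain, were also called lower. Cdh10 was at -0.16 with spot place removed and still called (adjusted p = 0.0121, limma), Cdh8 was at -0.22 and still called, and Cdh18 was at 0.04 and not called. Cdh6, Cdh9 and Cdh24 had means between -0.12 and -0.04 and were not called. Without spot place, Cdh9 was called higher at 0.19. Cdh6 was called lower on leaving out any of BXD11, BXD15, BXD33 and BXD36, and Cdh24 on leaving out BXD15.

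Among the 9 non-clustered protocadherins, 1 was called higher and 6 lower. Pcdh1, an epithelial protocadherin, had a mean of 0.55 ± 0.0680 (SE, n = 31, adjusted p = 3.44e-08, limma). Its values ran from -0.49 in BXD15 through 0.55 to 1.23 in BXD11, and BXD15 and BXD38 were the 2 strains below 0. Its spot lies at place 149, where other spots averaged -0.19, and with spot place removed its mean was 0.73. Pcdh10 (mean -0.32, adjusted p = 0.000135), Pcdh8 (-0.32, adjusted p = 3.82e-08) and Pcdh17 (-0.31, adjusted p = 0.0038) were the 3 lowest as deposited (limma). The order depended on spot place: with it removed, Pcdh17 (-0.35), Pcdh9 (-0.24), Pcdh18 (-0.23) and Pcdh8 (-0.18) were called lower in that order and Pcdh10, at -0.09, was not called. Pcdh8, Pcdh10 and Pcdh17 belong to the delta protocadherins of the nervous system. Pcdh8 was below 0 in 29 of 31 strains with an SD of only 0.191, whereas Pcdh17 was below 0 in 19 and ran from -1.50 in BXD39 to 0.40 in BXD38. Pcdh9, Pcdh15 (the partner of Cdh23 in tip links) and Pcdh18 were called lower with means from -0.22 to -0.15. Pcdh15 lost its call with spot place removed, at -0.05. Pcdh7 and Pcdh12 (an endothelial protocadherin) were not called, and Pcdh12 was called higher without BXD21.

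All calls among the clustered protocadherins were in the Pcdhb genes, 10 of 14 lower and 0 higher. None of the 3 Pcdha genes was called, or had an unadjusted p under 0.05 (limma). The lowest was Pcdhb4, which ran from -1.81 in BXD29 through -0.75 to 0.47 in BXD6 and was above 0 in 3 strains. Its mean was -0.82 ± 0.111 (SE, n = 31, adjusted p = 2.22e-07, limma) and its SD of 0.655 was the largest of the members. Pcdhb16 followed at -0.72 ± 0.0904 (SE, n = 31, adjusted p = 4.76e-08, limma), from -1.97 in BXD5 to 0.17 in BXD38, and Pcdhb22 at -0.57 (adjusted p = 2.32e-06, limma). Pcdhb2, Pcdhb7 and Pcdhb18 each had a mean of -0.49, and Pcdhb13, Pcdhb8, Pcdhb15 and Pcdhb20 means from -0.36 to -0.15. Pcdhb1, Pcdhb3, Pcdhb10 and Pcdhb21 lay between -0.07 and 0.12 and were not called. Pcdhb21 was called higher without BXD6.

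Nearly all Pcdhb spots shared 2 places, so an effect of the gene family and one of spot place cannot be told apart. Of the 14 Pcdhb spots, 13 lay at places 149 and 150, and the one elsewhere was Pcdhb21. The 78 spots of other genes at these 2 places had a mean of -0.18, and 42 of them (53.8%) were called lower and 9 (11.5%) higher. Over all spots, 30.3% were called lower and 27.2% higher. With spot place removed, 7 Pcdhb genes were lower and 2, Pcdhb1 and Pcdhb10, were higher, and the median of the 14 means moved from -0.30 to -0.13. In that setting 3791 of all 15096 genes were lower and 4468 higher. An upward move of the 13 genes was fixed by the removal, which adds the same amount to every gene at a place. Pcdhb4 (-0.60), Pcdhb16 (-0.55), Pcdhb22 (-0.36), Pcdhb18 (-0.32), Pcdhb2 and Pcdhb7 (-0.28 each) and Pcdhb13 (-0.18) were still called lower, and Pcdhb8, Pcdhb15 and Pcdhb20 were not. The part of spot place in the lower values of these 13 genes was not tested beyond these numbers. The Pcdhb genes are alike in sequence and the probe sequences were not used here, so the values of single Pcdhb genes are uncertain.

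**Figure D2:**
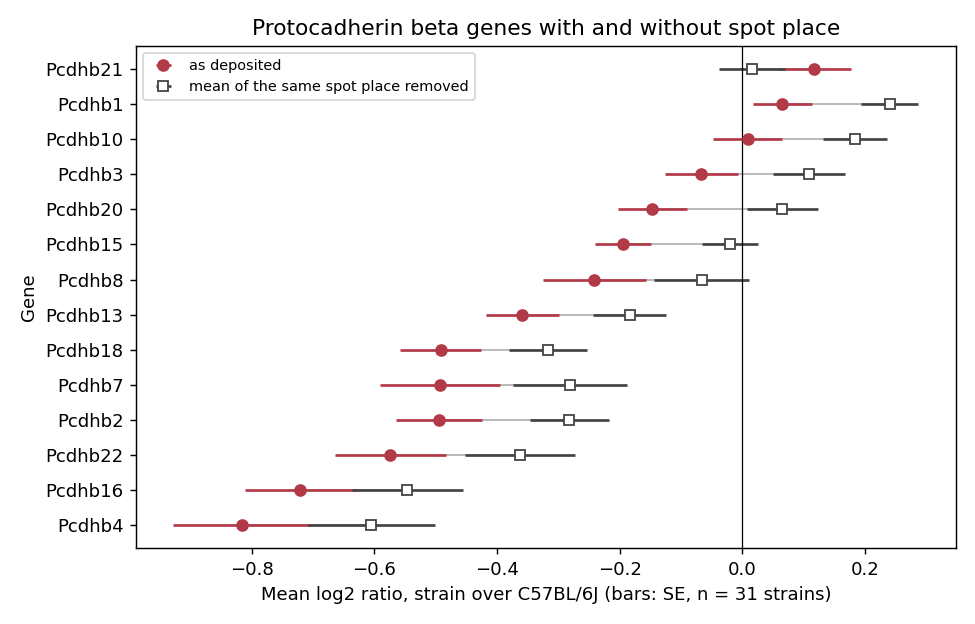
Mean log2 ratio of the 14 Pcdhb genes over 31 strains with standard errors (horizontal axis), as deposited (filled circles) and after the mean of the spots at the same place was removed from each array (open squares). All 13 genes with spots at places 149 and 150 move up, because the place means removed were below 0. The shift is the same for all genes at a place, so their order within a place cannot change. Pcdhb4 and Pcdhb16 remain lowest at -0.60 and -0.55.

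The Pcdha genes showed a single strain of high value. Pcdha6 was at 2.69 in BXD13 and between -0.84 and 0.36 in the other 30 strains. Its mean of -0.06 ± 0.101 (SE, n = 31) was not called (adjusted p = 0.629, limma), but without BXD13 it was -0.15 and called lower (adjusted p = 0.0210). Pcdha5 was highest in BXD38 at 1.16. Pcdha5 (0.23) and Pcdha7 (0.17) were called higher after removal of spot place.

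The spread over strains was that of genes in general. The members' median SD was 0.351 and that of all genes 0.358, with a range of 0.191 for Pcdh8 to 0.655 for Pcdhb4. Pcdhb4, Cdh16, Cdh20, Pcdha6, Pcdhb7 and Pcdh17 had the largest SD, and 2 of the 44 were among the 10% of genes with the largest SD. The strain of highest value was BXD21 for 9 of the 44 members, namely Cdh1, Cdh3, Pcdh9, Pcdh18, Pcdha7, Pcdhb1, Pcdhb8, Pcdhb10 and Pcdhb20. BXD21 was the highest strain for 5.45% of all genes. It was again highest for 9 members, and for 4.70% of genes, after removal of spot place. Its largest value was 1.76 for Pcdhb8, whose other strains reached at most 0.34. An absolute correlation of at least 0.5 with the first principal component was found for 10 members, against 28.4% of all genes.

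**Figure D3:**
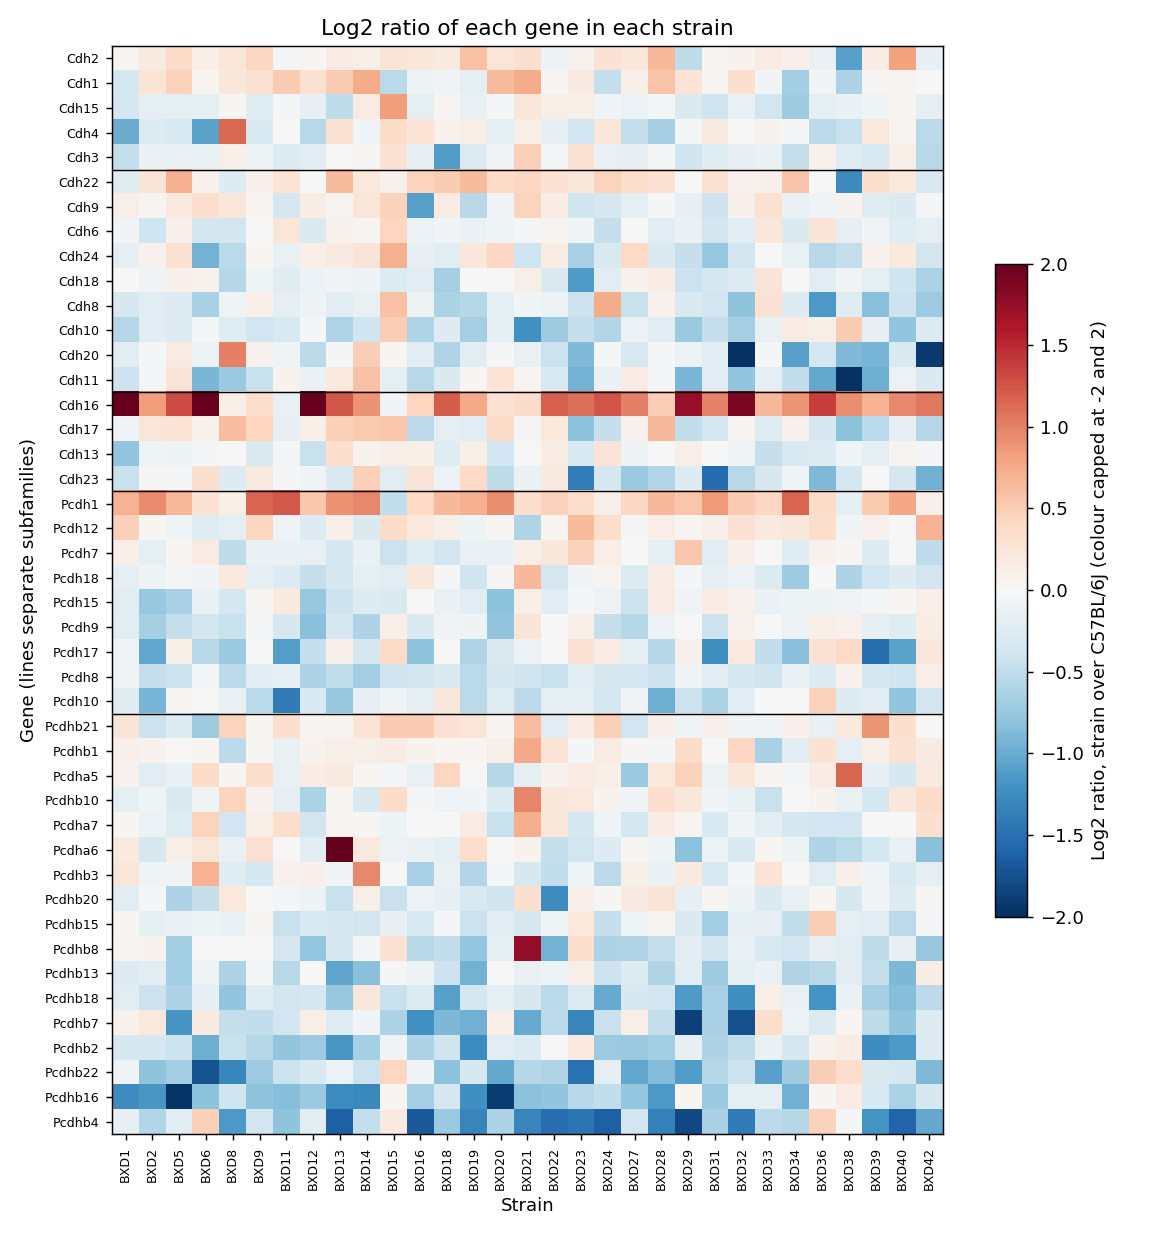
Log2 ratio of each gene (rows, grouped by subfamily and sorted by mean) in each of the 31 strains (columns), red above and blue below the C57BL/6J reference, with colours capped at -2 and 2. Cdh16 and Pcdh1 are red in 29 strains each, and single dark cells mark Pcdha6 in BXD13, Pcdhb8 in BXD21 and Cdh11 in BXD38.

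How far the strains fell on 2 sides was described by the best split of a gene's values with at least 5 strains per side. It removed 76.4% of the sum of squares for Pcdhb13, 76.1% for Pcdh17 and 75.9% for Pcdhb4, against a median of 64.5% for all genes. These were the 3 highest shares of the members, so the median of all genes is a low bar for them. Of all genes, 94.5%, 94.1% and 93.7% had a smaller share than Pcdhb13, Pcdh17 and Pcdhb4. The members' shares ran down to 38.3% for Pcdha6. For Pcdhb4 the split left 14 strains at -1.02 or lower and 17 at -0.81 or higher, so the gap between the sides was small against the SD. The genotypes of the strains were not used here.

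Genes with several spots showed how far 1 spot stands for a gene. The 3 spots of Cdh10 had means of -0.62, -0.18 and -0.17, and correlated over the 31 strains at r of 0.27, 0.04 and 0.08. The 2 spots of Pcdh7 were called in opposite directions, at 0.15 and -0.30, and correlated at 0.08. Those of Cdh6 were at 0.01 and -0.20 with r of -0.27, and those of Pcdh8 at -0.31 and -0.32 with r of -0.09. The spots of these 4 genes thus correlated weakly over strains, and those of Pcdh8 had like means.

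Marker lists for 8 cell types of kidney and brain were averaged per strain, and every gene outside the list was fitted on that mean (limma, adjusted over all genes). For stroma and smooth muscle (10 genes measured, such as collagens and actin of smooth muscle), 12 members passed, 8 in the same and 4 in the opposite direction, against 23.8% of all genes. The balance of directions depended on spot place: with it removed, 12 passed again but 5 in the same and 7 in the opposite direction, against 25.4% of all genes. Cdh11 had the largest correlation in size as deposited, with r of 0.841 and Spearman's rho of 0.843 (adjusted p = 1.40e-05, limma, and permutation p = 1e-05 for both, the smallest that 100000 permutations can give). Its log2 ratio changed by 2.21 ± 0.271 (SE, n = 31) per unit of the list mean. The correlation was 0.828 without BXD11 and BXD14, 0.820 without BXD15 and BXD38, 0.721 with the first principal component held constant, 0.713 with spot place removed, and 0.652, 0.758 and 0.897 within the 3 clusters of 6, 9 and 10 arrays. The list mean itself ran from -0.55 in BXD38 to 0.25 in BXD14, the strains in which Cdh11 was lowest and highest. Fewer cells of a type and less RNA per cell cannot be told apart in such pools.

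Pcdhb16 went against the stroma and smooth muscle mean (r = -0.721, rho = -0.708, adjusted p = 0.000236, limma), and Cdh1 went with it (r = 0.634, rho = 0.605, adjusted p = 0.00219, limma). The permutation p was 1e-05 for r and 2e-05 for rho of Pcdhb16, and 0.00012 and 0.00034 for those of Cdh1. The list mean correlated with the first principal component at 0.715. With that component as a covariate, Cdh11 and Cdh1 were the 2 members still called, against 4.1% of all genes. The call of Cdh1 was lost with spot place removed (r = 0.354, adjusted p = 0.133, limma).

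For the proximal tubule list (15 genes measured), 5 members passed, 1 in the same and 4 in the opposite direction, against 16.4% of all genes. Pcdh9 (r = -0.736, rho = -0.700, adjusted p = 0.000532), Pcdh15 (r = -0.716, rho = -0.586, adjusted p = 0.00104) and Pcdhb16 (r = -0.627, rho = -0.542, adjusted p = 0.00237) went against the list mean (limma). For endothelium (9 genes measured), 9 members passed, 3 in the same and 6 in the opposite direction, against 27.4% of all genes, led by Pcdh9 (r = -0.741), Pcdhb16 (r = -0.724) and Pcdh15 (r = -0.573). Both list means rose with the first principal component (r = 0.631 and 0.783). With it as a covariate none of these 3 genes was called for either list, and for Pcdh9 the sign of r within the cluster of 6 arrays was opposite, at 0.547 for proximal tubule and 0.794 for endothelium. Pcdhb18 was the 1 member called for proximal tubule with the covariate, against 3.26% of all genes. No member was called for endothelium, against 1.26% of all genes.

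Brain lists gave 1 member each. Pcdh1 went against the neuron mean (11 genes measured; r = -0.680, rho = -0.754, adjusted p = 0.0333, limma), in a list that 0.51% of all genes followed. Cdh15 went with the glia mean (10 genes measured; r = 0.629, rho = 0.480, adjusted p = 0.0423, limma), which 1.45% of all genes followed. Neither call held without BXD15 and BXD38, with adjusted p of 0.0844 for Pcdh1 and 0.0997 for Cdh15 (limma). The share of all genes called was then also lower, at 0.0133% for neurons and 1.09% for glia. The call of Cdh15 was also lost with spot place removed (adjusted p = 0.0561, limma). In that setting 1 other member was called for glia, against 4.32% of all genes. The call of Pcdh1 was also lost with the first principal component as a covariate (partial r = -0.606). For neurons, 0.0265% of all genes were called with that covariate. No member was called by limma for the thick ascending limb and distal tubule (1.39% of all genes called), the collecting duct (1.56%) or podocytes (0.0%). An unadjusted p under 0.05 (limma) was found for 6, 5 and 0 members. The share of all genes at that unadjusted threshold was not computed, so these counts have no background.

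**Figure D4:**
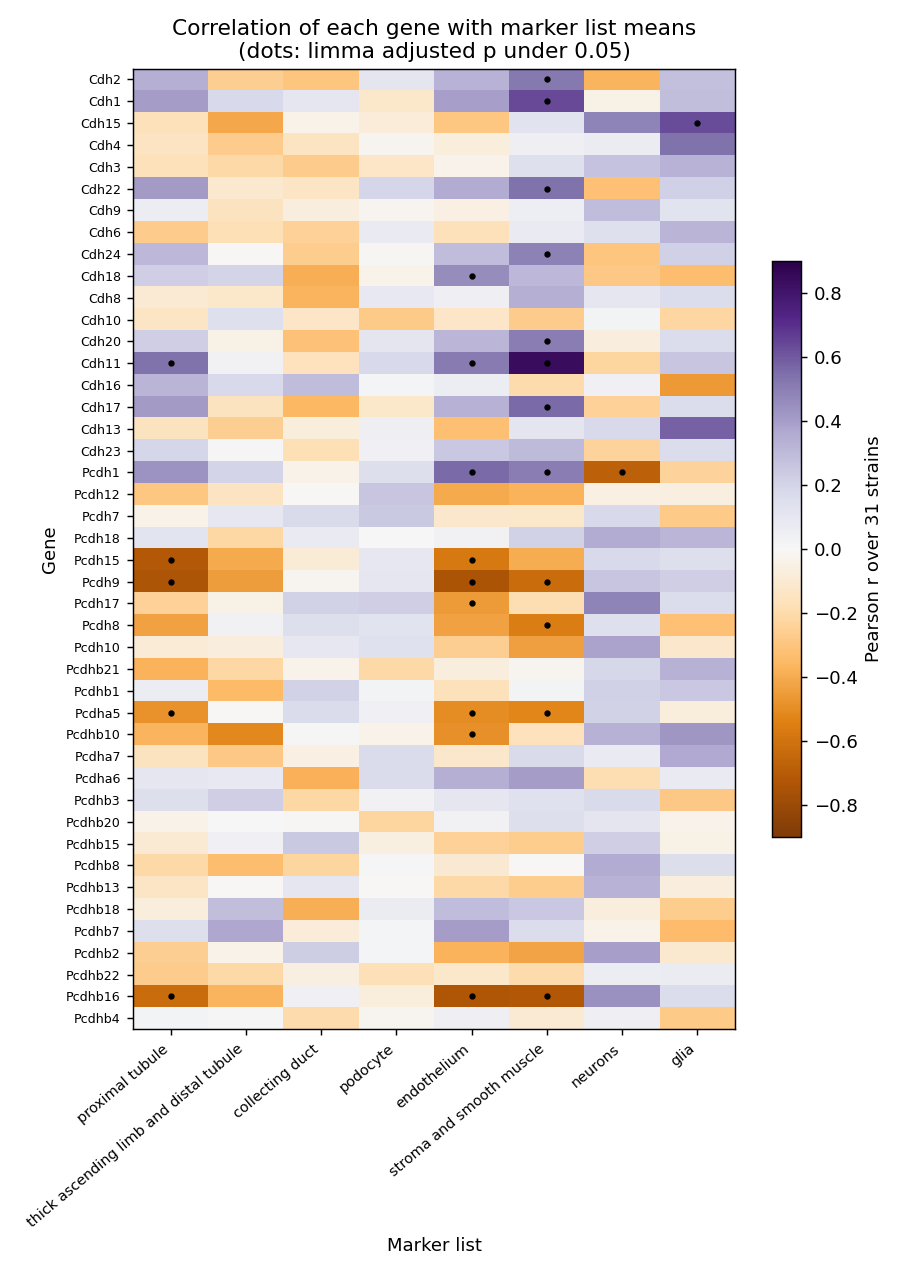
Pearson correlation over 31 strains of each gene (rows) with the mean log2 ratio of 8 marker lists (columns), purple for positive and orange for negative values, with a dot where the limma adjusted p was under 0.05. Cdh11 with stroma and smooth muscle (r = 0.841) is the darkest positive cell, and Pcdh9 with endothelium (r = -0.741) is the darkest negative one.

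Pairs of members were tested by fitting all genes on each member in turn, and a pair was called where both directions passed (limma). Of 946 pairs, 23 were called, 12 positive and 11 negative. In the fits on single members, from 0% to 23.9% of all genes passed, most for Pcdhb16 (23.9%), Pcdh9 (22.8%) and Cdh11 (17.5%). The share of all gene pairs called in both directions was not computed, so the counts of called pairs have no direct background. A correlation of at least 0.5 was reached by 22 pairs (2.33%), against 2.88% of all gene pairs, and -0.5 or lower by 17 (1.80%), against 2.35%, so the members as a set covaried no more often than genes in general. With the first principal component as a covariate 3 pairs were called, Cdh10 with Pcdhb4, Cdh2 with Cdh22 and Cdh11 with Cdh22. Without BXD15 and BXD38, 9 pairs were called.

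Cdh10 and Pcdhb4 formed the strongest pair (r = 0.723, rho = 0.755, larger adjusted p = 0.0104, limma, permutation p = 1e-05 for both). Both were high in BXD15, BXD36 and BXD38 and low in BXD21, BXD29 and BXD40. The correlation was 0.743 without BXD21 and BXD38, and 0.731, 0.748 and 0.584 within the clusters of 6, 9 and 10 arrays. Each of the 3 spots of Cdh10 correlated with Pcdhb4, at 0.502, 0.548 and 0.385, although they correlated little with one another. The spots of Cdh10 lie at places 112, 320 and 412, where other spots averaged -0.22, -0.29 and 0.03. That of Pcdhb4 lies at place 150, where other spots averaged -0.17. The cause of this covariation was not tested. The call was lost with the most variable spot standing for Cdh10 (r = 0.502, adjusted p = 0.0767).

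Cdh2 and Cdh22 (r = 0.697, rho = 0.502, larger adjusted p = 0.00419, limma, permutation p = 0.00042 and 0.00493) were both lowest in BXD38, and r was 0.367 without BXD29 and BXD38. Their call was also lost with spot place removed (r = 0.612, adjusted p = 0.124, limma). Pcdh9 and Pcdh15, whose promoters are printed above (r = 0.689, rho = 0.543, larger adjusted p = 0.00282, limma, permutation p = 2e-05 and 0.00163), were both lowest in BXD2, BXD12 and BXD20. Without BXD2 and BXD20 their r was 0.580, and within the cluster of 6 arrays it was -0.941. Cdh11 and Pcdhb16 were opposed (r = -0.683, rho = -0.660, larger adjusted p = 0.0012, limma, permutation p = 8e-05 and 0.0001), and r was -0.633 without BXD14 and BXD38 and -0.422 with the first principal component held constant. Cdh11 with Cdh22 (r = 0.671) and Cdh11 with Pcdha5 (r = -0.658) both had BXD38 at an extreme, with r of 0.446 and -0.464 without BXD15 and BXD38.

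**Figure D5:**
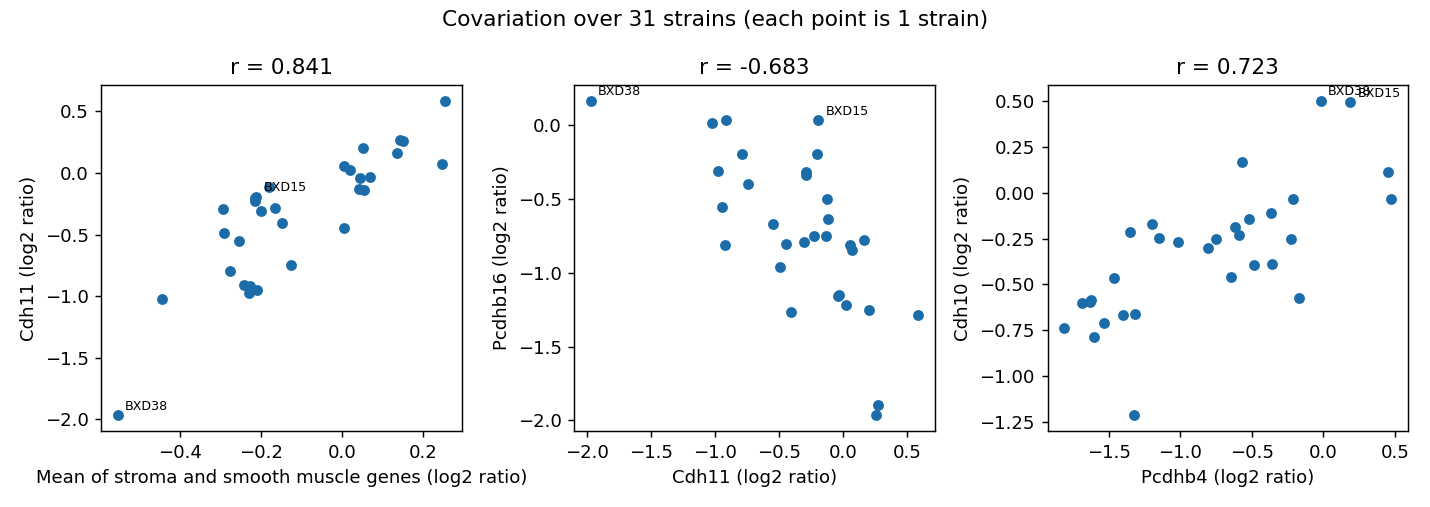
Log2 ratios of 31 strains (points) for Cdh11 against the stroma and smooth muscle mean (left), Pcdhb16 against Cdh11 (middle) and Cdh10 against Pcdhb4 (right), with BXD15 and BXD38 named and Pearson r of 0.841, -0.683 and 0.723 above the panels. BXD38 lies at the low end of Cdh11 and BXD15 and BXD38 at the high end of Cdh10.

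Neighbours in the genome were compared because the clustered protocadherins lie side by side. All 44 members were matched to the RefSeq gene table (GRCm38.p6), and 19 pairs of members were adjacent among measured genes. Their median r was 0.22, against 0.01 over all 14601 adjacent pairs. With spot place removed it was 0.17, against 0.0045 over all adjacent pairs. Of the 19 pairs, 7 had spots at the same place, with a median r of 0.32, and the 12 others had a median of 0.18. Some of these 12, such as Pcdhb3 with Pcdhb4, had spots at the successive places 149 and 150. An absolute r of at least 0.5 was found for 2 of the 19, against 6.06% of all adjacent pairs. Pcdhb4 with Pcdhb7 had r of 0.575, 0.563 without BXD6 and BXD36, and 0.51 with spot place removed, and their spots share a place. Pcdhb8 with Pcdhb10, which also share a place, had r of 0.544 but rho of 0.197, and r of 0.283 without BXD21 and BXD22 and 0.45 with spot place removed. Pcdhb3 with Pcdhb4 (0.499) and Pcdha7 with Pcdhb1 (0.475) came next. The other 15 pairs ran from -0.36 for Pcdhb16 with Pcdhb18 to 0.43 for Pcdhb21 with Pcdhb22, and included Cdh8 with Cdh11 (0.32), Cdh6 with Cdh9 (0.22) and Pcdh8 with Pcdh17 (0.23).

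Proteins that work with cadherins were taken from lists. The counts called are to be read against the 55.8% of all genes called (26.5% higher and 29.3% lower). Those with spot place removed are to be read against 4468 higher and 3791 lower of all 15096 genes. Of 14 catenins and partners, 3 were higher and 2 lower (limma), fewer than that share. Pkp3, a plakophilin of desmosomes, had a mean of 0.61 and was above 0 in 30 strains, Ctnna1 (alpha-catenin) was at 0.30 and Ctnnd1 (p120-catenin, which keeps cadherins at the surface) at 0.23. Pkp2 (-0.30) and Ctnna3 (-0.15) were lower, and Ctnnb1 (beta-catenin) was at 0.04 and not called. Pkp3 (0.67) and Ctnna1 (0.27) kept their calls with spot place removed, Ctnnd1 (0.12), Pkp2 (-0.07) and Ctnna3 (0.06) lost theirs, and Arvcf (0.11) and Vcl (-0.12) gained one. Of 17 other genes of the cadherin superfamily, 1 was higher, the microvillus cadherin Cdhr5 (0.33), and 9 were lower, among them Cdhr3 (-0.59), Celsr2 (-0.55) and Dchs1 (-0.50), a share called near that of all genes but mostly lower. After removal of spot place, 2 were higher and 8 lower, and these 4 genes kept their calls, at 0.39, -0.42, -0.52 and -0.45. Of 5 nectins and afadin, Afdn (afadin) was higher at 0.30 and Nectin3 lower at -0.16, and with spot place removed Afdn (0.34) alone was called. Of 10 regulators and proteases, Adam10, which cleaves cadherins, was higher at 0.33 in 29 strains, and the repressor genes Zeb2 (-0.28) and Snai1 (-0.22) and the methyltransferase gene Dnmt3b (-0.21) were lower. Snai1 (-0.08) lost its call with spot place removed, Twist1 (0.25) was then called higher, and Adam10 (0.36), Zeb2 (-0.39) and Dnmt3b (-0.16) kept theirs.

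Smchd1, a silencing protein known to act on the clustered protocadherins, was the most variable gene of these lists, from -2.45 in BXD16 to 3.16 in BXD2 with an SD of 1.54. Its mean of 0.35 was not called (adjusted p = 0.252, limma). In a fit of all genes on Smchd1 that was added after its spread was seen, 1 member was called, Pcdhb4 (r = 0.489, rho = 0.492, adjusted p = 0.0444, limma), against 7.87% of all genes.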

How the data were processed

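Total RNA of 31 BXD strains was measured on two-colour spotted arrays, 1 per strain. The authors deposited log ratios, read here as log2, made with R 2.0.0 and limma per the submitters' processing notes. The steps are not given in the sources used here. The deposited columns held identical sorted values. Signal over background is unknown, since no intensities were used here, and the number of arrays limits the precision.

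Of 23040 spots, 16874 had 1 gene name, 134 several and 6032 none; spots were averaged to 15096 genes. With limma 3.58.1 (R 4.3.3; lmFit and eBayes, 2-sided, Benjamini-Hochberg at 0.05 over all genes), means over strains were tested against 0, and genes were fitted on the mean of each marker list and on each member. Correlations had 100000 permutations (SciPy 1.17.1). Array clusters came from average linkage on 1 minus r, cut at 6 clusters. The fits were tested on simulated data.

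Members and lists were chosen with earlier results of these data known. Named were Cdh1, Cdh2, Cdh6 and Cdh16; per subfamily the 2 highest and 2 lowest called members (all where 4 or fewer); the 6 of largest SD; adjacent members; the 6 strongest called pairs; up to 3 called members per marker list; and genes with several spots. Others named, such as those whose call changed with spot place or on leaving out an array, were chosen after their values were seen. Alternatives changed 1 choice at a time: median centring, spots fitted singly, most variable spot, spread filter, spot place, array weights, robust eBayes, first principal component, BXD15 and BXD38 left out, and a minimum change of 0.2. Leaving out each array, fitting Smchd1, and removing spot place for list genes and adjacent genes were chosen after seeing the data.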

Additional observations from a re-analysis of the deposited data

How the results depend on the processing

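Against the reference, 26 of 44 genes were called, 26 to 30 under 7 alternatives, 24 of the 40 that passed the spread filter (no call was lost), 31 of 49 spots fitted singly, and 10, of which 8 lower, when a change beyond 0.2 was required. Of all genes, 55.8% were called in the main fit, 54.7% to 60.3% under those 7 alternatives and 17.2% with that change required. The share was 55.1% of the genes that passed the spread filter and 57.5% of all spots fitted singly. The number higher was 3 with all data, 9 with spot place removed and 5 both with array weights and without BXD15 and BXD38. Among all 15096 genes it was 4001 with all data and 4468 with spot place removed, and it was not counted for the others. Leaving out each array in turn gave 26 to 29 called, 3 to 4 higher and 23 to 26 lower, with no call lost. The sign of a mean turned with spot place removed for Cdh17 (0.19), Cdh18 (0.0364), Cdh24 (0.0513), Cdh9 (0.19), Pcdha7 (0.17), Pcdhb20 (0.0649) and Pcdhb3 (0.11). It turned for Pcdhb10 with median centring (-0.0042) and array weights (-0.0109), and for Cdh6 with its most variable spot (0.0140). The 28 calls of members for the marker lists fell to 4 with the first principal component as a covariate: 0 for endothelium, 0 for neurons, 1 for glia, 1 for proximal tubule and 2 for stroma and smooth muscle. Over all genes the share called fell from 27.4% to 1.26% for endothelium and from 16.4% to 3.26% for proximal tubule. For stroma and smooth muscle it fell from 23.8% to 4.1% and for neurons from 0.51% to 0.0265%. For glia it rose from 1.45% to 2.03%. Glia and neurons had 0 with the most variable spot and 0 without BXD15 and BXD38, a setting that gave 3 for proximal tubule and 1 for thick ascending limb and distal tubule. With the most variable spot, 0.411% of all genes were called for glia and 0.00663% for neurons. Without BXD15 and BXD38 these shares were 1.09% and 0.0133%. Without these strains, 12% of all genes were called for proximal tubule and 4.71% for thick ascending limb and distal tubule. The 23 called pairs fell to 3 with the first principal component as a covariate and to 9 without BXD15 and BXD38. No share over all gene pairs was computed for these calls. Within the cluster of 6 arrays r was -0.11 for Cdh2 with Cdh22, -0.94 for Pcdh15 with Pcdh9 and 0.0900 for Cdh11 with Pcdha5. The cause was not tested. No paired analysis was possible because each strain has 1 array and there is 1 group. With 1 array per strain, no replicate error of a strain is known, and values of single strains, such as Pcdha6 in BXD13, have no check.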
